A study of Mus musculus with 10 samples.

Results

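Induced oligodendrocyte progenitor cells (iOPC), made from pericytes of the mouse strain C57BL/6, were compared at passage 25 and at passage 5, where a passage is one transfer of a culture to fresh dishes. The comparison held 4 of the 10 bead arrays of the series, with 2 arrays at passage 25 and 2 at passage 5. The other arrays held iOPC at passage 15, primary oligodendrocyte progenitor cells (OPC) and the pericytes themselves, 2 of each. Both passages share the pericyte origin and the induction; the labels do not spell out the induction, and do not say whether arrays of a passage came from separate cultures. P-values therefore measure only the spread between these arrays.

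Of 16593 genes with a named probe, 8521 were analysed: their probe had 1 gene symbol, and its detection p was under 0.01 for at least 2 of these 4 arrays. The authors deposited the arrays as a table of non-normalized signals with detection p-values and as a table of normalized log2 values, and each comparison was made in both. The headings of these tables do not carry the same arrays throughout. The mean correlation across probes between like-titled columns was 0.977 for pericytes, but 0.835 for passage 25 and 0.864 for passage 5. The passage 5 signal columns correlated slightly more with the value columns of passage 25 (0.870) and passage 15 (0.867) than with their own. For the passage 25 signal columns, the value columns of passage 5 (0.831) and passage 15 (0.820) came close to their own (0.835). None of these reached the match of the pericyte columns. The passage 15 signal columns matched the OPC value columns at 0.977. Which table has the right headings was not tested, so each result below is given by its table, as the array so labelled.

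Pericytes line small vessels and share genes with fibroblasts and smooth muscle. OPC are glial progenitors that divide in response to PDGF and, on leaving the cell cycle, become oligodendrocytes, which wrap axons in myelin. That last step runs through a transient premyelinating stage and calls for the synthesis of myelin lipids, galactolipids and cholesterol among them.

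Between 45.9% and 47.8% of probes were detected on each of the 4 arrays, and the mean raw signal was 299 and 268 at passage 25, against 344 and 348 at passage 5. Replicate arrays correlated at 0.995 or above in the signal table. In the value table the correlation was 0.989 between the passage 25 columns and 0.954 between the passage 5 columns, where replicate 1 stood apart: it correlated with the passage 25 columns at 0.940 and 0.935, while replicate 2 did so at 0.968 with each. OPC markers were detected on both passage 25 arrays for 6 of 7 genes with a probe, and on both passage 5 arrays for 5 of 7; Olig2 was not detected on any. No pericyte marker of 7 was detected on both arrays of either passage, although Pdgfrb, Anpep and Notch3 were detected on both pericyte arrays. No microglial marker of 5 and no endothelial marker of 5 was detected on any of the 4 arrays. Of 6 fibroblast markers 5 were detected on both arrays of each passage, and their summed linear signal was 3307 to 3400 at passage 25, against 6748 to 6939 at passage 5. The lower sum was that of Lum (a mean log2 signal of 8.88 at passage 25, against 11.14 at passage 5) and of Pdgfra, also an OPC marker (8.83 against 11.52). Col1a1 (10.36 against 9.36), Dcn (8.43 against 8.18) and Col3a1 (9.54 against 9.40) had higher mean signals at passage 25. Of these, only Col1a1 had a limma adjusted p under 0.05 in signals (0.0584 for Dcn, 0.233 for Col3a1). A second probe changed by -0.07 in signals for Dcn and by -0.51 for Col3a1. In the value table Col1a1, Dcn, Lum and Col3a1 had higher means at passage 25, while Pdgfra was at 11.48 against 11.68. For oligodendrocyte markers that sum was 36300 to 38720 at passage 25, against 11820 to 11980 at passage 5. Of 5 astrocyte markers 2 were detected on both arrays of each passage, Gfap and Glul, and Gfap, a glial filament protein, averaged a log2 signal of 7.44 at passage 25, against 5.04 at passage 5. Its mean value was 2.51 at passage 25, against 2.72 at passage 5, and the mean signal of Glul was 6.11 at passage 25, against 6.31 at passage 5. In a bulk sample, fewer cells of a type and less RNA per cell cannot be told apart.

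Signals called 2445 genes higher at passage 25 (28.7% of those tested) and 2683 lower (31.5%) at a limma adjusted p under 0.05. The deposited values called 19 genes higher (0.223%) and 21 lower (0.246%), and at an unadjusted p under 0.05 these numbers were 533 (6.26%) and 826 (9.69%). The 40 calls among the values changed with single columns: without passage 25 replicate 1 or 2 limma called 0 genes (498 and 467 at an unadjusted p under 0.05), and without passage 5 replicate 1 or 2 it called 241 and 1762. Scaling the signals to 1 median in place of quantile normalization gave 1512 higher and 4004 lower genes. It moved the median change of all genes to -0.26. None of the 32 changes named for their size turned, but these were chosen as large changes without overlap. The median standard error was 0.09 in the signal table and 0.25 in the value table, on the log2 scale. Calls in both tables were made for 15 genes that were higher (0.176%), 11 that were lower (0.129%) and 10 with opposite directions (0.117%). Over all genes 45.0% moved the same way in both tables, and the changes correlated at -0.02 across genes, which are not independent replicates. Of all genes 11.7% were called higher in signals and lay above 0 in values, which is 40.6% of those called higher. For lower genes with values below 0 the shares were 14.4% of all and 45.6% of those called lower. Agreement of the tables is thus given gene by gene.

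**Figure D1:**
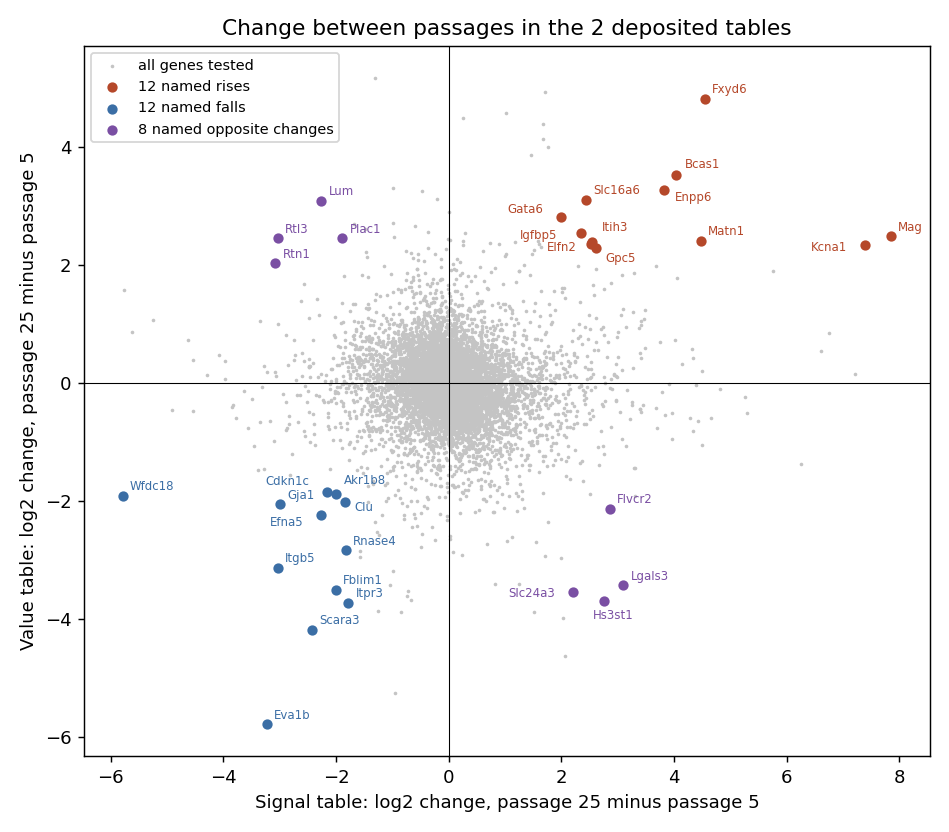
Each point is a gene, with its log2 change from the signal table on the horizontal axis and from the value table on the vertical axis, passage 25 minus passage 5. The cloud of 8521 genes shows no slope, the 12 named rises lie in the upper right, the 12 named falls in the lower left and 8 opposite changes in the other corners.

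Genes of the premyelinating and myelinating oligodendrocyte were nearly all higher at passage 25 in the signal table. There 21 of 22 tested members rose and 1, Evi2a, fell, against 28.7% and 31.5% of all genes. Their median change was 1.66 in the signal table and 0.51 in the value table, beside medians of -0.02 and -0.02 over all genes. Of the 21 that rose, 14 also lay above 0 in the value table, as 48.5% of all genes did, while 51.5% lay below it. Only Mag, Mbp and Bcas1 were called there.

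Mag, a myelin-associated adhesion protein that faces the axon, had a log2 signal of 12.83 and 12.65 at passage 25, against 4.69 and 5.09 at passage 5. Its log2 values were 11.79 and 11.71 at passage 25, against 9.08 and 9.43 at passage 5. It was thus high in the columns labelled passage 25 of each table. The passage 5 columns stood near background in the signal table alone, where 1 of 2 passage 5 arrays detected it. The changes were 7.85 ± 0.15 (SE; adjusted p = 4.43e-07) in the signal table and 2.49 ± 0.22 (adjusted p = 0.0467) in the value table, both by limma with n = 2 arrays per passage.

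Bcas1, an early marker of oligodendrocytes that begin to myelinate, had log2 signals of 13.52 and 13.54 at passage 25, against 9.49 and 9.50 at passage 5. The values were 13.77 and 13.64 at passage 25, against 10.16 and 10.19 at passage 5. The groups did not overlap in either table, and the change was 4.03 ± 0.08 in signals and 3.53 ± 0.20 in values. Enpp6, a choline-specific phosphodiesterase of newly forming oligodendrocytes, had log2 signals of 11.78 and 11.78 at passage 25, against 7.94 and 7.97 at passage 5. Its values were 6.58 and 6.49 at passage 25, against 4.18 and 2.37 at passage 5. The groups did not overlap in either table, but the passage 5 values lay far apart, and the value change of 3.27 ± 0.63 did not pass (adjusted p = 0.145).

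Mbp, a main protein of compact myelin, had log2 signals of 10.80 and 10.89 at passage 25, against 9.17 and 9.08 at passage 5. Its values were 11.75 and 11.54 at passage 25, against 6.69 and 6.73 at passage 5, so that the value table gave the larger change (4.93 ± 0.20, adjusted p = 0.0148) against 1.72 ± 0.09 in signals. A second Mbp probe moved by 1.62 in signals and 3.35 in values. Mog, a protein of the outer myelin surface, was not detected on either passage 5 array and was at least 84.9-fold higher at passage 25 in the signal table, counting undetected signals at the lowest detected level of each array. Its values of 10.76 and 10.88 at passage 25, against 9.30 and 10.64 at passage 5, differed by 0.85 ± 0.48 (adjusted p = 0.458).

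Genes for myelin lipids were higher as well in signals. Fa2h, which hydroxylates the fatty acids of galactolipids, rose by 3.08 ± 0.09 in the signal table, with a change of 1.84 ± 0.29 in the value table (adjusted p = 0.109). Ugt8a, which makes galactocerebroside, rose by 1.14 in the signal table with a value change of 0.51. Sirt2, a deacetylase abundant in oligodendrocytes, rose by 3.01, with a value change of 0.86. Not every member moved alike in the 2 tables: Cldn11, the claudin of myelin tight junctions, rose by 1.13 in signals but had a value change of -2.61 (adjusted p = 0.154). Its levels parted too. The mean log2 signal was 14.07 at passage 25, against 12.95 at passage 5. The mean value was 2.38 at passage 25, below the column median of 3.29, against 4.99 at passage 5.

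Promoters of 4 of these genes are shown because 21 of the 22 tested members rose in signals, while 14 of the 22 lay above 0 in values. MYRF-like (CTGGNAC) and SOX-like (ACAAAG) matches on either strand are in capitals. Control by a common factor was not tested. MYRF is a transcription factor that switches on myelin genes, and SOX10 is the SOX factor of the lineage. The promoters are 300-base RefSeq sequences of build GRCm38.p6 around the first listed transcription start, 5′ to 3′ on the gene's strand: Mag at chr7:30914814-30915113 (minus), Mog at chr17:37023349-37023648 (minus), Opalin at chr19:41077064-41077363 (minus) and Enpp6 at chr8:46986637-46986936 (plus).
Mag: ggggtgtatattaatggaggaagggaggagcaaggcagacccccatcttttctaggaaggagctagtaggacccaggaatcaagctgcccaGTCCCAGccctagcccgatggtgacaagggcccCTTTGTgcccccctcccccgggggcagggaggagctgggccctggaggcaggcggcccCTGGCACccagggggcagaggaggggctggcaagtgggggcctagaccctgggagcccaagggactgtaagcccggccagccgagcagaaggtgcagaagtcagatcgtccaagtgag
Mog: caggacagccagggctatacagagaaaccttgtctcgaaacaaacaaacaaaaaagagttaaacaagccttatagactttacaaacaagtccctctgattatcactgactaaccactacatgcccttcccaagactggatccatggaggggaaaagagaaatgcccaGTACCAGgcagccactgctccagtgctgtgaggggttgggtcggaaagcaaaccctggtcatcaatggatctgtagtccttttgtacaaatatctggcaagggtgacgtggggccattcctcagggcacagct
Opalin: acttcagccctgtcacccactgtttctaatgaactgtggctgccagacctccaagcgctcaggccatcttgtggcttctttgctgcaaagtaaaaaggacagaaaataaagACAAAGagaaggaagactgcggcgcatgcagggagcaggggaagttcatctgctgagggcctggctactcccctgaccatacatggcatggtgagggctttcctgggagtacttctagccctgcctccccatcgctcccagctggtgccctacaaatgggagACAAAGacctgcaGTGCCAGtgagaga
Enpp6: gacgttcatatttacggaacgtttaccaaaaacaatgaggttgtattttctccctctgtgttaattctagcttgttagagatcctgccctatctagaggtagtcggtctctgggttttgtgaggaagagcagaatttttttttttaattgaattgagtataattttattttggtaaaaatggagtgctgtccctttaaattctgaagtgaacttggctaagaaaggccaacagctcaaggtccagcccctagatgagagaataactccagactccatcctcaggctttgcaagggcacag
Mag held 2 MYRF-like matches and 1 SOX-like match, Mog 1 and 0, Opalin 1 and 2, and Enpp6 none of either. Of the 14 myelin genes higher in signals and above 0 in values, 11 had a promoter in the table. The MYRF-like letters stood in 5 of these 11 and in 19.2% of all 27025 promoters, and the SOX-like letters in 3 of 11 and in 18.7% of all. A match is a description of letters, not a site of binding, and the 2 motifs do not overlap in these 4 windows.

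The OPC identity genes split. By signal 12 of 21 rose and 6 fell, beside 28.7% and 31.5% of all genes. The signal median was 0.97, whereas the median of the value changes was -0.18. Sox8, a SOX factor of the oligodendrocyte lineage, had log2 signals of 8.68 and 9.0 at passage 25, against 7.27 and 7.15 at passage 5. Its values were 7.39 and 7.39 at passage 25, against 4.64 and 5.53 at passage 5, a change of 2.31 ± 0.35 (adjusted p = 0.1), with no overlap. Neu4, a sialidase of glia, was not detected on the passage 5 arrays and was at least 2.16-fold higher at passage 25, with a value change of 2.01 ± 0.21 (adjusted p = 0.0581).

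Gpr17, a receptor of committed precursors, showed the tables apart. Its log2 signals were 12.02 and 11.82 at passage 25, against 7.26 and 6.95 at passage 5, a rise of 4.82 ± 0.13. Its values were 12.41 and 12.39 at passage 25, against 12.46 and 12.53 at passage 5, a change of -0.09 ± 0.19. Pdgfra, the PDGF receptor of dividing OPC, fell in the signal table by 2.70 ± 0.09, with log2 signals of 8.89 and 8.77 at passage 25, against 11.54 and 11.51 at passage 5. Its values of 11.73 and 11.23 at passage 25 overlapped those of 11.96 and 11.41 at passage 5. Ednrb, an endothelin receptor of glial progenitors, was called lower in both tables, by -1.57 ± 0.11 in signals and -2.86 ± 0.23 in values (adjusted p = 0.0398).

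**Figure D2:**
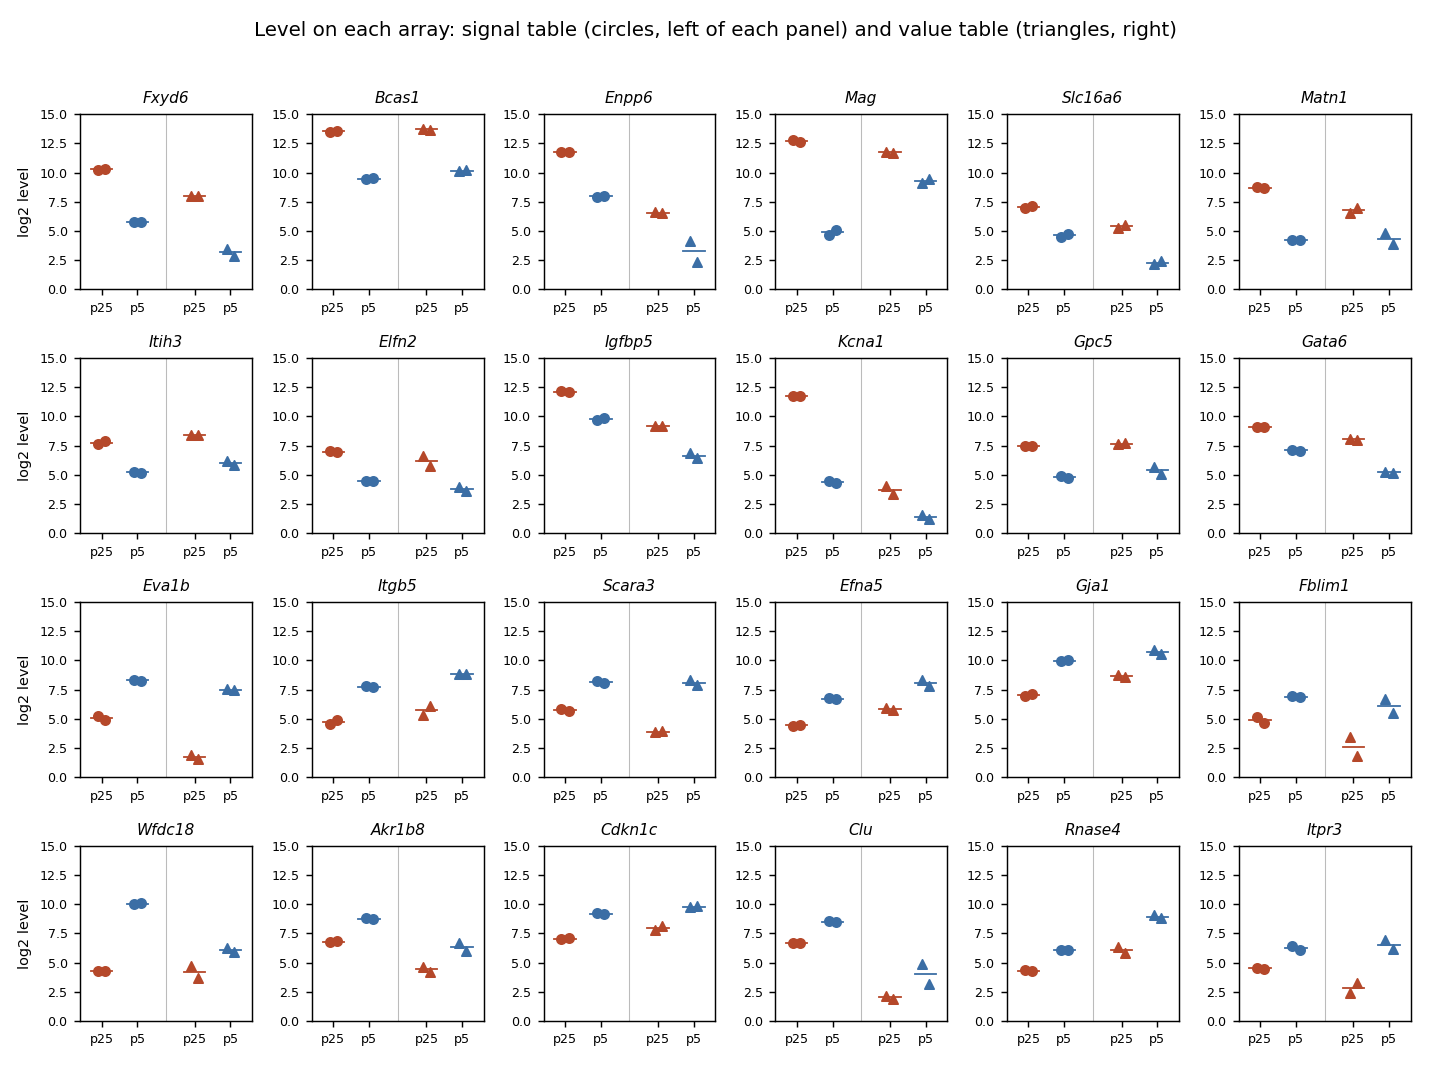
Log2 level on each array for the 12 rises and 12 falls with the largest smaller change over both tables; circles are normalized signals, triangles the deposited values, short bars the mean of 2 arrays, and passage 25 stands left of passage 5. In each panel the groups do not overlap in either table, and the passage 5 values of Enpp6, Clu and Fblim1 lie farther apart than their signals.

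Beyond myelin, the rises shared by both tables held matrix, channel and signalling genes. Fxyd6, a small regulator of the sodium pump, had log2 signals of 10.25 and 10.31 at passage 25, against 5.74 and 5.73 at passage 5. Its values were 7.99 and 8.02 at passage 25, against 3.48 and 2.88 at passage 5. The change was 4.55 ± 0.08 in signals and 4.82 ± 0.27 in values (adjusted p = 0.0219), nearly the same size in each table.

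Kcna1, a voltage-gated potassium channel, was detected on both passage 25 arrays but on neither passage 5 array, and was at least 123-fold higher there in the signal table. Its values were 4.03 and 3.38 at passage 25, against 1.57 and 1.17 at passage 5 (adjusted p = 0.0824). The passage 25 values lay little above the column median of 3.29, and the passage 5 values below it. Matn1, a cartilage matrix protein, was likewise undetected at passage 5 and at least 14.7-fold higher at passage 25, with a value change of 2.42 ± 0.41 (adjusted p = 0.121). Elfn2, a leucine-rich repeat membrane protein, was at least 4.46-fold higher, and Slc16a6, a monocarboxylate transporter family member, at least 4.72-fold higher. Slc16a6 was also called in the value table (3.11 ± 0.22, adjusted p = 0.0278).

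Igfbp5, a secreted binding protein for insulin-like growth factors, had log2 signals of 12.15 and 12.12 at passage 25, against 9.69 and 9.87 at passage 5. Its values were 9.17 and 9.18 at passage 25, against 6.83 and 6.44 at passage 5 (2.54 ± 0.23, adjusted p = 0.0467). Within each table the columns labelled passage 25 lay above those labelled passage 5. Itih3, a hyaluronan-binding inter-alpha-trypsin heavy chain, was called in both tables, by 2.55 in signals and 2.40 in values. Gpc5, a cell-surface heparan sulphate proteoglycan, rose by 2.62 in signals with a value change of 2.30.

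Gata6, a transcription factor of endoderm and vascular cells, had log2 signals of 9.14 and 9.08 at passage 25, against 7.16 and 7.07 at passage 5. The values were 8.05 and 8.03 at passage 25, against 5.27 and 5.16 at passage 5 (2.82 ± 0.19, adjusted p = 0.0259). It is also a gene of the source cells: the pericyte arrays had a mean log2 signal of 10.56, above both passages.

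Of the 12 named falls 9 had a higher mean signal on the pericyte arrays than at passage 5, the exceptions being Wfdc18, Cdkn1c and Clu. That does not extend to the falls at large: of the 636 genes called lower in signals and lower without overlap in both tables, a share of 39.2% was higher in pericytes than at passage 5, beside 42.9% of all genes tested. Eva1b, a membrane protein, had log2 signals of 5.23 and 4.89 at passage 25, against 8.31 and 8.27 at passage 5, and 9.45 on average in pericytes. Its values were 1.85 and 1.57 at passage 25, against 7.51 and 7.48 at passage 5 (-5.79 ± 0.21, adjusted p = 0.0148). A second Eva1b probe changed less, by -0.78 in signals and -1.31 in values, so the size of the fall depends on the probe. Scara3, a scavenger receptor family member, fell by 2.42 in signals, and its values changed by -4.19 ± 0.23 (adjusted p = 0.0219).

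Gja1, the gap junction protein connexin 43, had log2 signals of 6.93 and 7.08 at passage 25, against 9.98 and 9.99 at passage 5. Its values were 8.74 and 8.57 at passage 25, against 10.85 and 10.57 at passage 5 (-2.06 ± 0.22, adjusted p = 0.0581). Efna5, an ephrin that guides axons, was not detected at passage 25 and was at least 3.45-fold lower there. Its value change was -2.24 ± 0.25 (adjusted p = 0.0606). Rnase4, a secreted ribonuclease, was at least 2.25-fold lower at passage 25, and was called in the value table as well (-2.84 ± 0.27, adjusted p = 0.0477).

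Other shared falls were Fblim1, a filamin-binding adhesion protein (log2 signals of 5.12 and 4.67 at passage 25, against 6.91 and 6.88 at passage 5, and a value change of -3.51), and Itpr3, a calcium release channel (at least 2.54-fold lower, with a value change of -3.73). Akr1b8, an aldo-keto reductase, fell by 1.99 in signals with a value change of -1.89, and Clu, the chaperone clusterin, by 1.84 with a value change of -2.01. For Clu the value change was -1.13 without replicate 1 of passage 5. Wfdc18, a small whey acidic protein, was at least 34.8-fold lower at passage 25 in the signal table, since its log2 signals of 4.29 and 4.24 at passage 25 were undetected against 10.00 and 10.10 at passage 5. Neither pericyte array detected it. Its values were 4.72 and 3.64 at passage 25, against 6.27 and 5.92 at passage 5.

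Integrin subunits, the receptors that tie cells to matrix, were more often lower than higher. By signal 6 of 10 fell (60%) and 4 rose (40%), beside 31.5% and 28.7% of all genes. All 6 that fell lay below 0 in values, where 51.5% of all genes lay. The list medians were -0.63 in signals and -0.92 in values. Itgb5, a vitronectin receptor subunit, had log2 signals of 4.58 and 4.86 at passage 25, where it was undetected, against 7.80 and 7.70 at passage 5. It was at least 7.05-fold lower in signals, and its values were 5.36 and 6.05 at passage 25, against 8.82 and 8.87 at passage 5 (-3.14 ± 0.30, adjusted p = 0.0477). Itga5, a fibronectin receptor subunit, was called in both tables, at -0.66 ± 0.08 and -3.68 ± 0.33. Itgav and Itga3 fell by 1.20 and 0.60 in signals, and their values changed by -0.94 and -2.28. Itga7, the laminin receptor subunit of muscle and glia, went against the list in signals at 3.31, with a value change of -1.44.

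Interstitial matrix genes followed. By signal 12 of 19 fell (63.2%) and 5 rose (26.3%), beside 31.5% and 28.7% of all genes. The medians were -0.97 in signals and -0.22 in values. In values 8 of the 12 that fell also lay below 0, beside 51.5% of all genes. Lum and Dcn are also counted among the fibroblast markers given above, whose levels moved both ways, and the part of such cells in these falls was not tested. Fbln1, an elastic fibre protein, had log2 signals of 5.88 and 5.40 at passage 25, against 8.14 and 8.26 at passage 5. Its values were 7.20 and 7.35 at passage 25, against 8.19 and 8.01 at passage 5 (adjusted p = 0.205). Thbs2, an anti-angiogenic matricellular protein, fell by 1.68 in signals with a value change of -1.10, and Ltbp1, which stores latent TGF-beta in matrix, was at least 3.70-fold lower with a value change of -0.72.

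Other matrix genes show how far the tables part. Bgn, the proteoglycan biglycan, had log2 signals of 13.12 and 13.02 at passage 25, against 10.99 and 11.02 at passage 5, and values of 3.33 and 2.97 at passage 25, against 7.84 and 7.73 at passage 5. Lum, the proteoglycan lumican, had log2 signals of 9.0 and 8.77 at passage 25, against 11.18 and 11.11 at passage 5, and values of 8.45 and 8.31 at passage 25, against 5.19 and 5.38 at passage 5. Both were called in both tables, in opposite directions. Dcn, the proteoglycan decorin, was not called in signals (0.25 ± 0.09, adjusted p = 0.0584) and had a value change of 4.49 ± 0.48 (adjusted p = 0.0581).

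Cartilage-type matrix genes had more rises than falls, as had fibrillar collagens and their processing enzymes, with 8 of 16 risen and 3 fallen in signals and medians of 0.28 in signals and -0.25 in values. In the cartilage-type group 8 of 12 rose and 3 fell by signal, beside 28.7% and 31.5% of all genes. In values 5 of the 8 also lay above 0, beside 48.5% of all genes. The medians of that group were 0.89 in signals and 0.14 in values. Matn1 has been given above. Col11a2, a minor fibrillar collagen of cartilage, rose by 1.84 in signals with an unclear value change of 0.46 ± 0.79 (1.55 without replicate 1 of passage 5). Chil1, a secreted chitinase-like protein, rose by 0.83 with a value change of 0.62 ± 0.54 (1.38 without that replicate). Cytl1, a secreted cartilage cytokine, fell by 5.25 in signals and had a value change of 1.06.

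**Figure D3:**
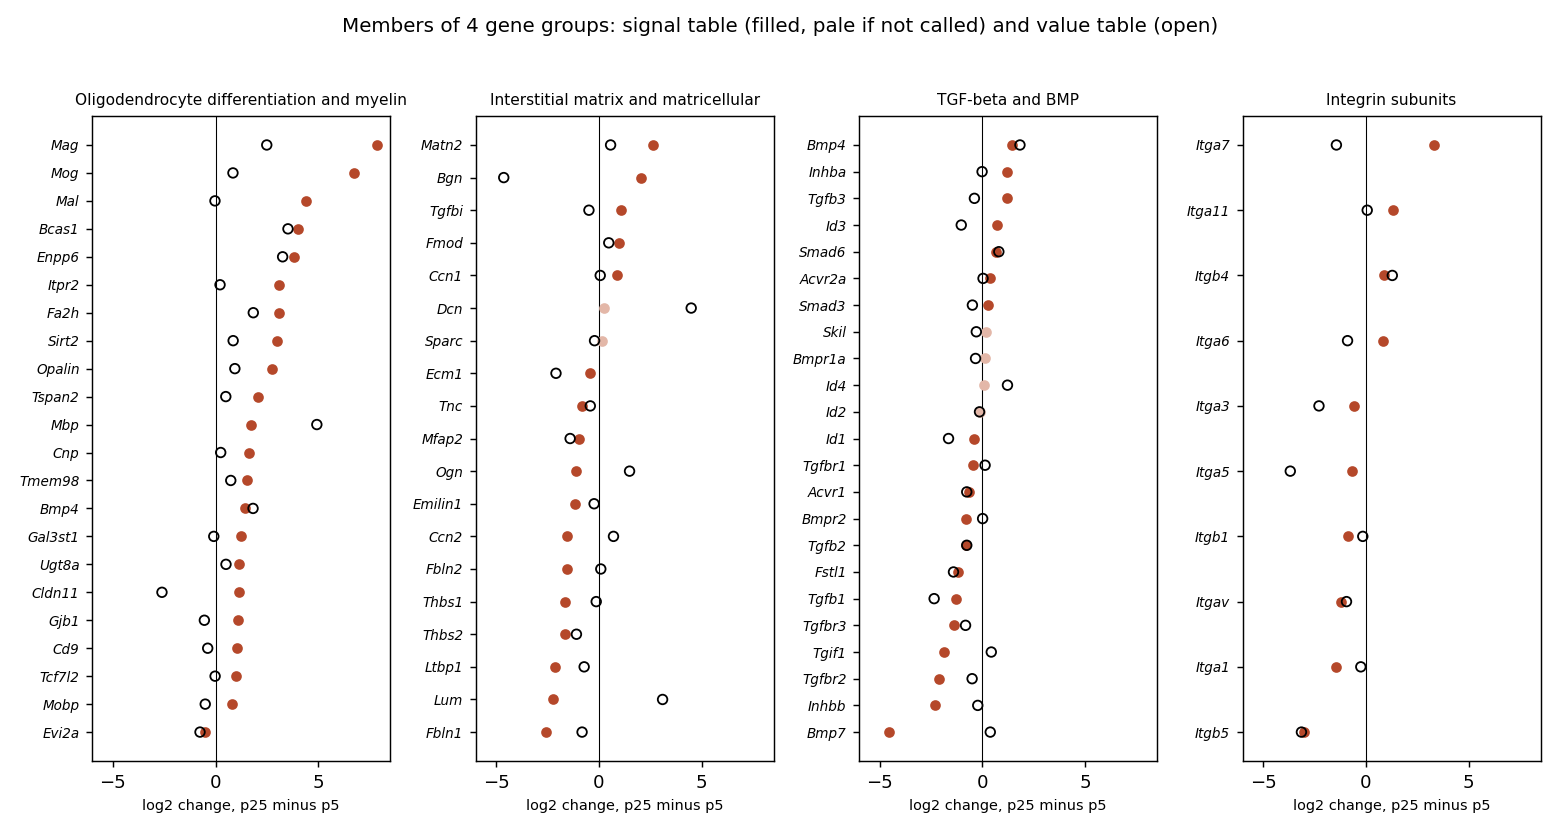
Log2 change of each tested member of 4 gene groups, passage 25 minus passage 5; filled points are the signal table (pale where the adjusted p was 0.05 or more) and open points the value table. Most myelin members lie right of 0 in signals, while the integrin, matrix and TGF-beta members lie mostly left of it, and open and filled points part for Cldn11, Bgn, Lum and Dcn.

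TGF-beta and BMP genes were more often lower than higher. As read from signals, 12 of 23 fell (52.2%) and 7 rose (30.4%), beside 31.5% and 28.7% of all genes. In values 8 of the 12 that fell also lay below 0, beside 51.5% of all genes. The medians were -0.41 in signals and -0.30 in values, the latter -0.18 without replicate 1 of passage 5. Among ligands, Tgfb1 had log2 signals of 5.57 and 5.81 at passage 25, against 6.96 and 7.02 at passage 5, and values of 2.18 and 2.58 at passage 25, against 4.38 and 5.09 at passage 5 (-2.35 ± 0.33, adjusted p = 0.0876). Tgfb2 fell by 0.80 with a value change of -0.76. Bmp4 moved the other way, undetected at passage 5 and at least 1.76-fold higher at passage 25, with a value change of 1.83. Of the receptors, Tgfbr3, the co-receptor betaglycan, fell by 1.36 with a value change of -0.82. Fstl1, a secreted BMP antagonist, fell by 1.21 with a value change of -1.41. Bmp7, another ligand, fell by 4.53 in signals but had a value change of 0.38.

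Wnt genes were more often lower too. In signals 9 of 17 fell (52.9%) and 5 rose (29.4%), beside 31.5% and 28.7% of all genes. In values 7 of the 9 that fell also lay below 0, beside 51.5% of all genes. The medians were -0.49 in signals and -0.42 in values. Nkd2, a Dishevelled-binding antagonist of Wnt signalling, had log2 signals of 7.38 and 7.10 at passage 25, against 10.49 and 10.53 at passage 5. Its values were 9.89 and 9.89 at passage 25, against 11.40 and 11.30 at passage 5 (-1.45 ± 0.19, adjusted p = 0.0808). The receptors Fzd7 and Fzd1 fell by 2.56 and 0.71 in signals, with value changes of -0.89 and -1.18. Sfrp1, a secreted antagonist, was undetected at passage 25 and at least 1.23-fold lower, with a value change of -0.70. Wnt5b, a ligand, went against the list at 3.40 in signals and 0.51 in values.

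Mesenchymal transcription factors were more often lower. In signals 8 of 12 fell (66.7%) and 4 rose (33.3%), beside 31.5% and 28.7% of all genes. In values 7 of the 8 that fell lay below 0, beside 51.5% of all genes. The medians were -0.91 in signals and -0.28 in values, the latter -0.02 without replicate 1 of passage 5. Twist1, which maintains mesenchymal state, had log2 signals of 6.59 and 6.44 at passage 25, against 7.97 and 7.81 at passage 5, and values of 6.78 and 6.66 at passage 25, against 8.16 and 7.55 at passage 5 (adjusted p = 0.201). Snai1, a repressor of epithelial genes, fell by 1.42 with a value change of -1.75, and Prrx1, a limb and stroma homeobox gene, by 0.78 with -0.69. Meox1, a homeobox gene of somites, was at least 22.9-fold lower in signals, but its values of 1.76 and 0.97 at passage 25 overlapped those of 2.63 and 1.01 at passage 5. Gata6 rose in both tables.

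Growth factor genes went both ways. In signals 10 of 20 rose and 7 fell, beside 28.7% and 31.5% of all genes, and 8 of the 10 were also above 0 in values. The medians were 0.37 in signals, 0.10 after median scaling, and 0.23 in values. Igf1, which promotes oligodendrocyte growth, was at least 3.22-fold higher in signals with a value change of 0.36, and Gdnf, a neurotrophic factor, at least 4.06-fold higher with 0.38. Flt1, a VEGF receptor, rose by 2.81 with a value change of 0.45, and Hgf by 0.71 with 0.25. None of these value changes passed the threshold in limma, and their adjusted p-values lay between 0.502 and 0.62. Detection was asked of the signals alone, and all values of Igf1, Flt1 and Hgf lay below the column median of 3.29. Those of Igf1 were 2.46 and 2.96 at passage 25, against 2.44 and 2.26 at passage 5. Small differences at such low values are counted among the 8 above 0. Among IGF binding proteins 3 of 6 fell and 2 rose. Igfbp3 and Igfbp4 were undetected at passage 25 and at least 1.21-fold and 1.63-fold lower in signals, with value changes of -0.99 and -0.40 (-2.24 and -0.78 without replicate 1 of passage 5), while Igfbp2 fell by 4.08 with a value change of 0.47.

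Lipid metabolism was higher in part. Of the fatty acid synthesis and desaturation genes 12 of 17 rose and 2 fell in signals, beside 28.7% and 31.5% of all genes. Their value median was 0.06, however, beside 0.67 in signals. Above 0 in values lay 6 of the 12 that rose and 48.5% of all genes. Fads2, a desaturase of polyunsaturated fatty acids, had log2 signals of 10.73 and 10.63 at passage 25, against 8.87 and 8.92 at passage 5, and values of 8.54 and 8.43 at passage 25, against 7.58 and 8.33 at passage 5 (adjusted p = 0.469). Scd2, the stearoyl-CoA desaturase of brain, rose by 0.96 with a value change of 0.51. Without replicate 1 of passage 5 the value changes were 0.15 for Fads2 and 0.19 for Scd2. Of the lipid transport and storage genes 8 of 15 rose and 7 fell, with medians of 0.31 and 0.32. The signal median was 0.12 after median scaling, and the value median 0.02 without replicate 1 of passage 5. Plin2, a lipid droplet coat protein, rose by 2.20, with a value change of 0.89 that became -0.48 without replicate 1 of passage 5. Apoe, the main apolipoprotein of brain, rose by 3.91 with a value change of -0.01.

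Cholesterol synthesis and uptake genes were picked out after their values were seen, since the list lacked enough calls for the rule. In signals 8 of 18 rose and 3 fell, beside 28.7% and 31.5% of all genes. All 8 that rose lay above 0 in values, where 16 of the 18 did, beside 48.5% of all genes. The medians were 0.14 in signals and 0.51 in values, and the signal median was -0.08, with 3 higher and 6 lower, after median scaling. Hsd17b7, an enzyme of the later pathway, had log2 signals of 11.57 and 11.47 at passage 25, against 9.59 and 9.62 at passage 5, and values of 10.67 and 10.69 at passage 25, against 10.21 and 10.11 at passage 5 (adjusted p = 0.306). Lss, lanosterol synthase, rose by 0.57 with a value change of 0.76, and Cyp51, lanosterol demethylase, by 0.30 with 0.78.

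Detoxifying glutathione transferases and aldehyde dehydrogenases were more often lower in signals. There 12 of 18 fell and 3 rose, beside 31.5% and 28.7% of all genes. In values 8 of the 12 that fell lay below 0, beside 51.5% of all genes. The medians were -0.45 in signals and -0.13 in values, the latter -0.05 without replicate 1 of passage 5. Gstt1 had log2 signals of 5.43 and 5.42 at passage 25, against 6.56 and 6.54 at passage 5, and values of 3.17 and 3.55 at passage 25, against 5.47 and 4.71 at passage 5 (adjusted p = 0.15). Gstm4 was undetected at passage 25, at least 1.48-fold lower in signals, with a value change of -0.85. Aldh1a1, which makes retinoic acid, went against the list in signals at 2.78, with a value change of -0.30.

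Cell cycle inhibitors and p53 targets were more often lower in signals as well. There 12 of 21 fell and 3 rose, beside 31.5% and 28.7% of all genes. In values 8 of the 12 that fell lay below 0, beside 51.5% of all genes. The medians were -0.51 in signals and -0.16 in values, the latter -0.10 without replicate 1 of passage 5. Cdkn1c, the imprinted inhibitor p57, had log2 signals of 7.01 and 7.08 at passage 25, against 9.22 and 9.19 at passage 5. Its values were 7.79 and 8.10 at passage 25, against 9.78 and 9.83 at passage 5 (-1.86 ± 0.22, adjusted p = 0.0642), so the groups did not overlap in either table. Plk2, a stress-induced kinase, fell by 3.82 with a value change of -0.37. Ccng1, a cyclin induced by p53, fell by 1.28 with a value change of -0.34, but its other 2 probes had value changes of 0.86 and 0.60. Gadd45g, a growth arrest gene, rose by 3.25 with a value change of -0.31.

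Imprinted growth genes, in which Cdkn1c is also counted, had 7 of 12 fallen and 3 risen in signals, beside 31.5% and 28.7% of all genes. Their medians were -0.37 and -0.05, and the value median was 0.21 without replicate 1 of passage 5. Grb10, an adaptor that restrains insulin signalling, fell by 3.08 with a value change of 0.18, and Igf2 rose by 2.53 with 0.11. Neurotransmitter receptor genes had 5 of 9 fallen (55.6%) and 4 risen (44.4%) in signals, so both shares lay above the 31.5% and 28.7% of all genes. In values 5 of the 9 lay below 0, beside 51.5% of all genes. The medians were -0.44 in signals and -0.30 in values, and after median scaling 5 fell and 1 rose. Of these, P2ry1, an ATP receptor, fell by 0.44 with a value change of -0.87, and S1pr2, a sphingosine phosphate receptor, by 1.12 with -0.64. Gria3, an AMPA receptor subunit, fell by 0.66 with -0.77, and its other probe changed by 0.19 in signals and -1.45 in values.

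Dividing-cell and ribosomal genes moved apart between the tables. By signal 23 of 24 cell cycle and DNA replication genes fell and 0 rose, beside 31.5% and 28.7% of all genes. Their signal median was -1.54, but 21 of the 24 lay above 0 in values, beside 48.5% of all genes, with a median of 0.41. Kif11, a mitotic spindle motor, had log2 signals of 6.11 and 5.93 at passage 25, against 8.42 and 8.56 at passage 5, and values of 9.46 and 9.38 at passage 25, against 9.13 and 9.17 at passage 5. Mcm3, a replication helicase subunit, fell by 1.44 with a value change of 1.34. Cytosolic ribosomal protein genes had 18 of 24 fallen and 0 risen, with medians of -0.57 and 0.13. No member of either group was called in the value table by limma (0 of 24 each), and at an unadjusted p under 0.05 there were 7 cell cycle and 2 ribosomal members higher and 0 lower.

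**Figure D4:**
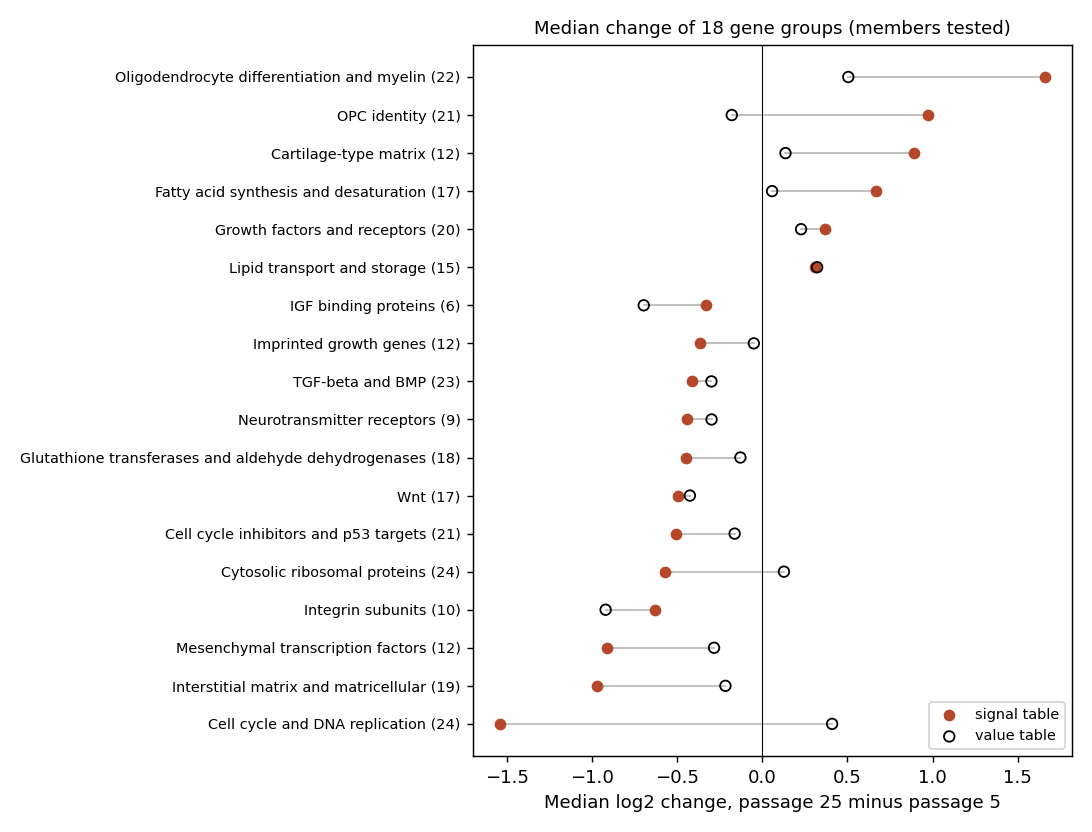
Median log2 change, passage 25 minus passage 5, of the tested members of 18 gene groups in the signal table (filled) and the value table (open), with the number tested in brackets. The rule that chose the groups fixed that 15 have both medians on one side of 0, and OPC identity, cell cycle and ribosomal protein genes have them on opposite sides. Of all 51 lists with 5 or more tested members, 24 had medians of one sign and 27 of opposite signs.

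Some genes had large, non-overlapping changes of opposite direction in the 2 tables. Lgals3, a galectin of macrophages and fibroblasts, had log2 signals of 8.95 and 8.93 at passage 25, against 5.77 and 5.91 at passage 5, and values of 1.03 and 2.33 at passage 25, against 5.49 and 4.74 at passage 5. Hs3st1, a heparan sulphate sulphotransferase, changed by 2.75 in signals and -3.71 in values, and was called in both. Rtn1, a neuronal reticulon, changed by -3.08 in signals and 2.03 in values. Groups did not overlap in either table but lay in opposite directions for 24.9% of genes, against 7.76% that were higher in both and 9.72% that were lower in both.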

How the data were processed

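RNA of 10 samples was hybridised to mouse Illumina bead arrays as biotin-labelled cRNA. The deposited signal table holds an intensity per probe and array that is non-normalized, per the file headers, with a deposited detection p-value beside it. The deposited series-matrix values are on a log2 scale with the same quantiles in each column (median 3.29 in each of the 4 columns used). Their background correction is not given in the sources used here, genes were not visibly centred, and values of 1 channel have no direction. The submitters' processing notes name lumi, RMA and BeadStudio 3.2 without their roles. No slide or scan date is given.

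Signals of all 10 arrays were background-corrected by limma 3.58.1 (R 4.3.3, function neqc, offset 16, with control probes inferred from detection p), quantile-normalized and logged. Of 25697 probes, 23978 had 1 symbol in the platform annotation, 0 several and 1719 none, and 23962 were named through Entrez. Detection left 11804 probes. For 2338 genes with several, the probe with the highest mean signal over the 4 arrays was used in both tables. Passage 25 minus passage 5 was fitted per table with lmFit and eBayes on 4 arrays (2 residual degrees of freedom), adjusted by Benjamini-Hochberg over 8521 genes, and called under 0.05. The fit was tested on simulated data.

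Genes named are the 12 rises and 12 falls with the largest smaller change over both tables (called in signals, no overlap in either table), 4 opposite changes each way, up to 5 members of each described list with those against it, and cell type markers. A list was described where at least 5 members were tested, both medians had one sign, and enough tested members were called that way in signals. Enough means at least as many called that way as not. Myelin, OPC identity, cell cycle and ribosomal lists were described in any case. Other members named, such as Gpr17 beside the OPC list, were added for contrast after their values were seen. Members and lists were chosen with earlier results of these data known. A gene undetected on both arrays of a passage is given as at least N-fold, against the higher of its own level and the lowest detected level. Replicate numbers pair no samples: deviations of like-numbered arrays correlated at -0.02 in signals and 0.12 in values. Plots used Python 3.11.15 and matplotlib 3.10.9. The number of arrays limits the precision.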

Additional observations from a re-analysis of the deposited data

How the results depend on the processing

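In the signal table the 5128 calls stayed within 1.5 times under no background correction, scaling to 1 median, normalization over the 4 arrays, both detection rules, a mean over probes, all 10 arrays, an intensity trend, the replicate block (5051) and leaving out each array in turn (4055 to 4813; 1975 to 2298 higher and 2080 to 2515 lower). Median scaling moved the higher calls to 1512, with 27.4% of calls higher beside 47.7%, and a 2-fold minimum left 1367 calls (734 and 633). All 400 alternative values of the 32 genes named for size kept direction and call in the signal table. The 40 calls from the values became 870 with all 10 columns in the fit (346 higher, 524 lower), 157 with an intensity trend (55 and 102), 23 with a mean over probes (10 and 13), 13 without a detection filter (7 and 6), 15 with the replicate block (6 and 9), and 0 to 1762 when a column was left out (0 to 794 higher, 0 to 968 lower). Calls shared by both tables in one direction were 26, and 299 with 10 arrays (118 higher, 181 lower), 14 with a mean over probes (7 and 7), 9 with the replicate block (5 and 4), and 0 to 405 with an array left out (0 to 171 higher, 0 to 234 lower). The replicate block adds no evidence, since by the labels the arrays share only a number. The 32 genes named for size were chosen for groups that do not overlap in either table. Leaving out a column could therefore not turn their direction. The fits with 10 arrays, an intensity trend or the replicate block keep the same change, so the kept direction adds no evidence in those settings. Of 336 alternative values of these named genes in the value table none turned direction, 53 lost and 56 gained a call. Of 234 counts of list members called in the list's own main direction 6 moved beyond 1.5 times, all with detection asked on all 4 arrays, which leaves 7509 genes; in the other direction, neurotransmitter receptors had 4 higher, but 1 after median scaling. Without replicate 1 of passage 5, 13 of the value changes of all 122 genes the naming rule gave turned sign and 31 others moved by over 1.5 times. Among them Mog became 0.18, Gdnf 0.83, Ltbp1 -0.33, Meox1 0.35, Mcm3 0.59 and Cyp51 0.35, none of them a called value. Otherwise the cause was not tested. A fit without 1 array assumes that the lone array varies like the other pair.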

Other observations

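Groups that did not meet the rule were chosen for mention after their values were seen. By signal 11 of 18 interferon response genes were higher at passage 25 and 2 were lower (28.7% and 31.5% of all genes), while 14 of the 18 lay below 0 in the value table. Ifit3, an interferon-induced antiviral protein, changed by 2.76 in signals and -1.20 in values, and Gbp2, an interferon-induced GTPase, by 1.30 and -1.96. All 13 tested antigen presentation genes lay below 0 in values, beside 51.5% of all genes, with a median of -0.92. In signals 5 were higher and 2 lower, with a median of 0.06. H2-Aa, a class II chain, changed by 2.03 in signals and -0.50 in values. Lysosome and autophagy genes had 17 of 27 higher and 3 lower in signals. In values 20 of the 27 lay below 0, beside 51.5% of all genes. Ctsk, a matrix-degrading cathepsin, changed by 0.81 and -2.19.

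Among neuron and synapse genes 10 of 14 were higher and 2 lower in signals, beside 28.7% and 31.5% of all genes. In values 10 of the 14 lay below 0, beside 51.5% of all genes. Nfasc, an adhesion protein of the node of Ranvier, changed by 3.40 and -0.45, and Ncam1, a neural adhesion molecule, by 3.14 and -1.07. The 6 neuron markers went the other way in signals, with a summed linear signal of 462.6 to 484.9 at passage 25, against 1005 to 1061 at passage 5. Only 2 of them, Map2 and Syp, were detected on both arrays of each passage. Map2 changed by -1.42 in signals and 0.17 in values. Proteasome subunits changed little in signals, with 4 higher and 3 lower of 25. In values 23 of the 25 lay above 0, beside 48.5% of all genes, at a median of 0.29.

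Of 13 matrix metalloproteinases and their inhibitors 4 were higher (30.8%) and 6 lower (46.2%) in signals, beside 28.7% and 31.5% of all genes. In values 10 of the 13 lay below 0, beside 51.5% of all genes. Those lower in both tables without overlap included Mmp3 (-2.78 and -1.20), Mmp16 (-2.52 and -0.33), Mmp14 (-1.75 and -0.59) and Mmp2 (-1.56 and -0.93). Of 15 basement membrane genes 4 were higher and 4 lower in signals (26.7% each), near the shares of all genes. In values 13 of the 15 lay below 0, with a median of -0.85, beside -0.08 in signals. The laminin chains Lamb1 (-1.22 and -0.77) and Lamc1 (-0.83 and -0.56) were among the lower. Among the inhibitors, Timp3 changed by 1.75 and -1.40, and Timp2 by 1.30 and -1.11. Genes that MAPK signalling induces and that feed back on it went both ways, with 10 of 24 higher and 10 lower in signals and medians of 0.06 in signals and -0.42 in values. Among the lower, Dusp6, a phosphatase of ERK, changed by -2.88 in signals and -0.80 in values, and Ier3, an early response gene, by -2.37 and -1.05. Etv5, an ETS factor of the same response, changed by -3.97 in signals and 0.07 in values. None of the value changes in this paragraph passed an adjusted p of 0.05 in limma.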
